A study of Oncorhynchus mykiss with 7 samples.

Results

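The 200 RefSeq transcripts described here gave the brightest array signal in the proximal intestine of juvenile rainbow trout. They were chosen by their mean signal over all 7 arrays. A RefSeq transcript is one whose probe carries an NM_ accession, and a probe is a short DNA strand fixed to the array that binds labelled RNA. The arrays hold 2903 such accessions, and 1884 of them had a probe well above background at every spot on all 7 arrays. The 200 with the highest mean are 10.6% of these 1884 and 6.89% of all 2903 accessions. The level of a transcript is the log2 processed signal of its brightest probe minus the array's 75th percentile over the 2464 probes with an NM_ accession that met the same condition, so a level of 1 means a signal 2-fold above that percentile.

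Each array measured 1 fish. The insect arrays, 4 in number, come from fish given a feed with 400 g insect meal (black soldier fly) and 3 g guar gum per kg, in which insect protein took over 100% of the protein that soy meal had supplied. The control arrays, 3 in number, come from fish whose feed held 300 g of soy protein concentrate in each kg. All fish were females of the Störk strain, aged 6 months, with a mean starting weight of 135.97 g. They were sampled between day 64 and day 69 of the trial after a day of fasting, and all came from the tank A of their feed, so tank, insect meal, guar gum and any other ingredient cannot be told apart. The protocol text names both pools of 5 fish per tank and individual RNA specimens, and each array is taken as 1 fish because the second wording describes the RNA extraction. The labels list Cy4 for insect 3 and Cy5 for insect 4 although the protocol names cyanine 3 for all samples, and the files give 1 channel for every array.

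The proximal intestine is the part of the trout gut next to the stomach, where enterocytes, the absorptive cells of the gut lining, take up peptides, sugars and lipids. In most tissues the RNAs of highest abundance include those for ribosomal proteins, cytoskeletal proteins and the specialised products of the main cell type. Whether the 200 transcripts belong to such groups was not determined. The array files pair probes with accessions and not with gene names, and 0 of the 2903 accessions were among the 1216 NM_ transcripts of the trout annotation used here (RefSeq assembly USDA_OmykA_1.1). The transcripts are therefore given by accession, no role is assigned to any of them, and the labelled tissue could not be checked against marker genes. Whether the accessions were defined in trout or in another species was not determined. How well each probe matches trout RNA, which bears on its brightness, was not tested.

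Signal is not the same as abundance, which was not measured, and probes of the same accession differed widely in signal. Whether such probes detect the same RNA was not tested. Of the 200 transcripts, 105 had more than 1 probe, with 145 other probes between them. Among the 113 other probes that were also well above background at every spot on all 7 arrays, the brightest probe of the same accession exceeded the other by a median of 3.04 log2 units (quartiles 1.29 and 4.79), which is 8.24-fold, and by up to 9.40 log2 units. The brightest probe was kept, and the 200 chosen, by this same signal, so each gap is above 0 by the choice and its size follows in part from it. A further 16 of the 145 were well above background at every spot on 0 arrays. When the mean of all eligible probes of an accession replaced the brightest probe, 157 of the 200 transcripts were chosen again. The order of the accessions is thus an order of probes, and levels are compared below between fish for the same probe.

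The measurement itself was less even on the control arrays. Over the 35 chosen transcripts with 2 spots per array, the SD between the spots was 0.105 to 0.169 log2 units on the insect arrays and 0.239, 0.415 and 0.481 on control 1, control 2 and control 3. Control 2 and control 3 shared slide 2, while control 1 and all insect arrays lay on slide 1. Brightness before scaling differed as well. The 75th percentile subtracted from each level was 7.47 to 8.21 log2 units on the insect arrays and 7.84 to 8.91 on the control arrays. Of all non-control probes, 41.7% to 45.9% on the insect arrays were well above background at over a 0.5 share of their spots. On the control arrays this was 44.9% to 49.0%. No spot of a non-control probe was saturated. The lowest signal of any of the 200 on an array was 103 to 558.8 intensity units on the insect arrays and 153.2 to 718.5 intensity units on the control arrays.

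The 200 levels spanned 7.08 to 1.87 in the mean over 7 fish, a 36.9-fold range, with a median of 3.00. Of these means, 57 lay above 4. The 200 transcripts supplied 74.2% to 75.2% of the summed signal of the 1884 on the insect arrays and 74.5% to 77.0% on the control arrays. Their share of the signal of all non-control probes was 11.7% to 12.9% on the insect arrays and 12.4% to 13.2% on the control arrays. The 10 brightest gave 23.3% to 26.1% of the signal of the 200 on the insect arrays and 21.3% to 28.8% on the control arrays, so both shares overlapped between the groups.

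The transcript with the brightest probe was NM_001139718, which is measured at 20 spots per array. Its level was 7.16, 7.10, 7.08 and 7.11 on the insect arrays and 6.94, 6.87 and 7.32 on the control arrays. All 7 fish lay within 1.37-fold of each other, and the insect fish fell inside the range of the control fish. A second probe of this accession, A_05_P484862, lay only 0.13 log2 units lower in the mean, while another, A_05_P487342, lay 4.20 lower.

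NM_001123663 followed with levels of 7.37, 6.86, 6.80 and 7.08 on the insect arrays and 6.61, 6.59 and 7.24 on the control arrays, and the groups overlapped. NM_001140782 had 6.59, 6.86, 6.38 and 6.30 on the insect arrays and 5.86, 6.67 and 7.11 on the control arrays, with both the lowest and the highest fish among the controls. NM_001141689 had 6.61, 6.59, 6.60 and 6.67 on the insect arrays and 6.31, 6.24 and 6.57 on the control arrays. It was one of the steadiest of the 200, and the insect fish lay just above the control fish without overlap. A second probe of NM_001141689, A_05_P461072, lay 7.02 log2 units lower and repeated neither trait. Its levels ranged over 1.64 log2 units, the groups overlapped, and the difference was -0.35 against 0.24 for the brightest probe.

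The next 3 in order behaved alike in their insect fish. NM_001140843 read 5.98, 5.91, 5.90 and 5.91 on the insect arrays and 5.87, 6.54 and 6.67 on the control arrays. NM_001141094 read 5.90, 5.90, 5.86 and 5.82 on the insect arrays and 5.71, 6.10 and 6.50 on the control arrays. In both, control 1 was the lowest fish and control 2 and control 3, the pair on slide 2, were the highest. NM_001140665 read 5.84, 5.76, 5.73 and 5.70 on the insect arrays, all below the 6.01, 5.86 and 6.23 of the control arrays.

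The last 3 of the 10 were less even. NM_001123525 had 5.98, 5.71, 6.00 and 5.77 on the insect arrays and 5.40, 6.45 and 5.21 on the control arrays, so that the control fish lay on both sides of the insect fish. NM_001139647 had 5.57, 5.77, 5.40 and 5.30 on the insect arrays and 5.56, 5.68 and 6.30 on the control arrays. NM_001141497 had 5.92, 5.47, 4.75 and 5.90 on the insect arrays and 4.88, 5.99 and 6.66 on the control arrays, a 3.74-fold range in which insect 3 and control 1 were the 2 lowest fish. A second probe of NM_001141497, A_05_P366649, lay 9.35 log2 units lower and was also lowest in these 2 fish, at -5.23 on insect 3 and -5.17 on control 1 against -3.91 to -2.26 on the other 5 arrays. These 2 values are weak signals, below -4.98, the lowest mean level of any of the 1884 transcripts.

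**Figure D1:**
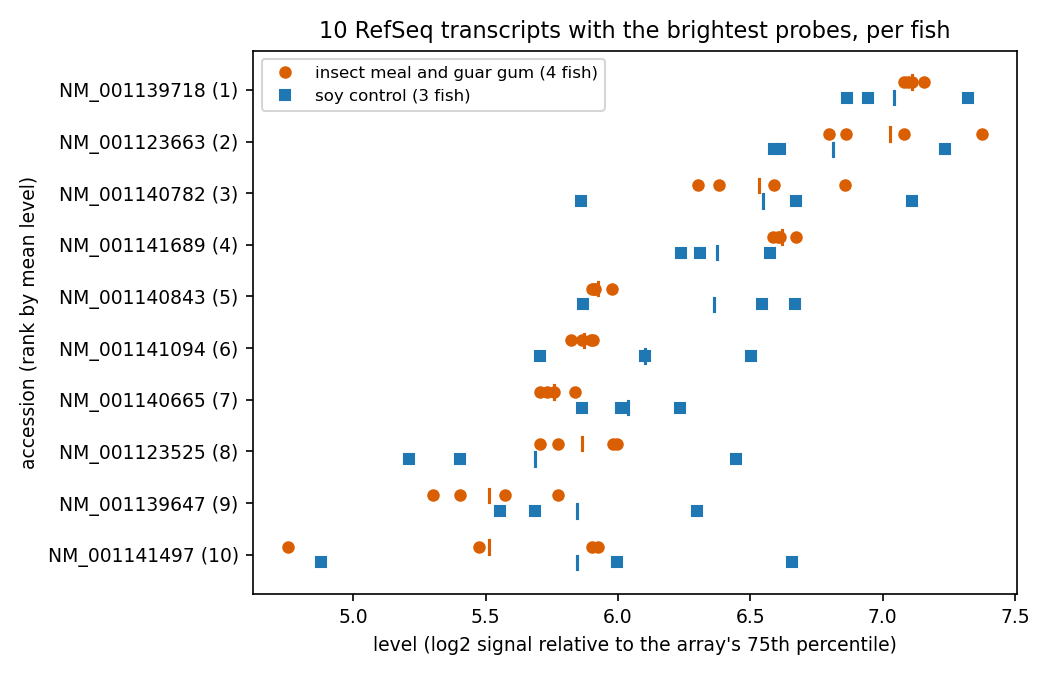
Level (log2 signal relative to the array's 75th percentile, horizontal axis) of the 10 transcripts with the brightest probes, with 1 point per fish, circles for the 4 insect arrays above squares for the 3 control arrays, and a short bar at each group's mean. The control fish are spread more widely than the insect fish for each of the 10, and NM_001141497 has 1 low fish in each group, insect 3 at 4.75 and control 1 at 4.88.

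Ranks were steady at the top and loose near the limit. Because the mean level chose the transcripts, these figures describe the choice and are no test. NM_001139718 was first on 6 arrays and second on insect 1, and 7 of the 10 stayed within the 10 brightest on every array. A total of 15 transcripts reached the 10 brightest of at least 1 array. Of the 200, 141 were among the 200 brightest on all 7 arrays, 99 of them in the upper 100 and 42 in the lower 100. A further 13 were so on 6 arrays, 25 on 5, 15 on 4, 5 on 3 and 1, NM_001141578, on 2.

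The distance between a transcript's best and worst rank had a median of 18 for ranks 1 to 50, 49.5 for ranks 51 to 100, 79.5 for ranks 101 to 150 and 105.5 for ranks 151 to 200. Single arrays placed 179 to 183 of the 200 in their own top 200 on the insect side and 178 to 182 on the control side. In exchange, 69 other transcripts entered the top 200 of at least 1 array. When the choice was repeated without 1 array, 195 to 198 of the 200 were chosen again. From the insect arrays alone 190 were chosen again, from the control arrays alone 189, and 179 were common to both of these choices.

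The limit at rank 200 cut through closely spaced values. The last 3 inside were NM_001141578 at 1.88, NM_001139868 at 1.87 and NM_001146522 at 1.87. The first 3 outside were NM_001141504 at 1.86, NM_001140405 at 1.85 and NM_001140522 at 1.85. These steps are far smaller than the SD between fish of the 3 last inside, which was 0.22 for NM_001141578, 0.48 for NM_001139868 and 0.37 for NM_001146522.

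The spread between fish was taken as the pooled SD within diets, which through the control fish also holds any difference between slides. It had a median of 0.307 log2 units over the 200 (quartiles 0.226 and 0.448) and of 0.374 over the other 1684 transcripts that met the background condition. By bands of 200 ranks the median was 0.307, 0.356, 0.353 and 0.325 for the first 4 bands and 0.431 for the last, which holds ranks 1801 to 1884. The 200 thus had the lowest median of the 10 bands, though the fourth band lay close to it. An SD above 1 was found for 4 of the 200 (2.0%) and for 43 of the other 1684 (2.55%). Over the 7 fish, 110 of the 200 stayed within 2-fold, 90 ranged 2-fold or more, 18 of these 4-fold or more and 4 of these 8-fold or more.

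Spread was lower on the insect side. The SD over the 4 insect fish had a median of 0.238 log2 units, and that over the 3 control fish a median of 0.362. For 133 of the 200 the SD was smaller in the insect fish. These figures were not taken over the other transcripts, so they are not read as particular to the 200. The unevenness of the spots given above was also larger on the control arrays. Control 1 had the smallest spot SD of the controls, 0.239, and the largest median deviation from its group's mean, 0.295. That deviation was 0.190 on control 2 and 0.238 on control 3. Control 2 and control 3 share slide 2, so the order of these values is only a description. The insect arrays all lay on slide 1 and the control arrays on both slides, so the control SD also holds any difference between slides. The parts of spots and slides in the lower spread were not tested. For the 4 transcripts measured at 20 spots per array, the SD between fish can be set beside the SD between spots. NM_001123627 had 0.50 between fish, against 0.07 to 0.14 between spots on the insect arrays and 0.19 to 0.37 on the control arrays. Of the 4, it alone differed by more between fish than between spots on every array.

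NM_001139718 had 0.16 between fish, against 0.07 to 0.10 between spots on the insect arrays and 0.15 to 0.37 on the control arrays. NM_001123603 had 0.21 between fish, against 0.05 to 0.15 on the insect arrays and 0.26 to 0.55 on the control arrays. NM_001123699 had 0.20 between fish, against 0.04 to 0.22 on the insect arrays and 0.29 to 0.39 on the control arrays. In these 3, the single spots of some or all control arrays differed by more than the fish. As each fish is a mean over its spots, this does not place the differences between fish within the error of measurement.

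**Figure D2:**
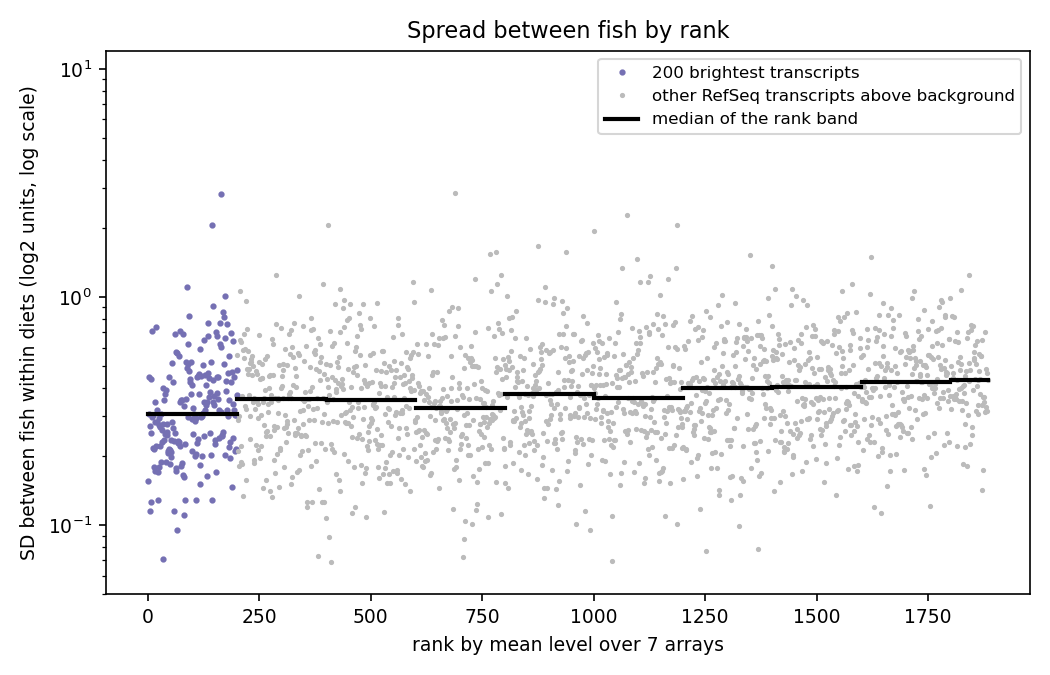
Pooled SD between fish within diets (log2 units, log scale, vertical axis) against rank by mean level (horizontal axis) for the 1884 transcripts, with the 200 brightest in colour and a bar at the median of each band of 200 ranks. The bars lie between 0.307 for the first band and 0.431 for the last, and the highest points of the first band are at 2.81 and 2.07.

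The steadiest of the 200 was NM_001141606, with 4.64, 4.75, 4.62 and 4.58 on the insect arrays and 4.57, 4.49 and 4.62 on the control arrays, an SD of 0.07. All 7 fish fell within 1.20-fold, and the groups overlapped. A second probe of NM_001141606, A_05_P251639, lay 2.12 log2 units lower and was less steady, with a range of 1.17 log2 units. NM_001173811, with an SD of 0.09, had 3.84, 4.01, 3.99 and 3.86 on the insect arrays and 3.52, 3.52 and 3.70 on the control arrays, so that every insect fish lay above every control fish. Its probe A_05_P371622, 0.75 log2 units lower, repeated this order only narrowly, with the lowest insect fish at 3.03 and the highest control fish at 3.02. On its probes A_05_P469557, A_05_P479302, A_05_P372147 and A_05_P480602, which lay 3.04 to 7.94 lower, the groups overlapped. NM_001139960, NM_001141689 and NM_001139733 had SDs of 0.11 to 0.12. The difference of NM_001173811, 0.35 log2 units, had a 95% interval of -0.14 to 0.83 in limma, which draws so small a spread towards that of the other probes.

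The largest spread was that of NM_001173928, with an SD of 2.81. Its level was 3.46, 4.14, -1.53 and 3.80 on the insect arrays and -1.65, 3.44 and 3.66 on the control arrays. Insect 3 and control 1 stood far below the other 5 fish, at ranks 993 and 1015, and the range was 55.3-fold. A second probe of this accession, A_05_P273099, lay 3.95 log2 units lower and did not repeat the pattern, with -1.92, -2.75, -1.23 and -1.31 on the insect arrays and -1.39, -1.68 and -2.04 on the control arrays.

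NM_001126232 came next, with an SD of 2.07 and levels of 0.53, 5.16, 4.78 and 2.88 on the insect arrays and 3.54, 0.92 and -0.37 on the control arrays. High and low fish occurred on both feeds, and the transcript was in the top 200 on 4 arrays. NM_001141362 had 3.75, 1.35, 4.61 and 3.29 on the insect arrays and 2.83, 3.24 and 3.76 on the control arrays, with insect 2 alone at the low end. Its SD was 1.11.

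NM_001140223 had 2.71, 2.13, 0.62 and 2.37 on the insect arrays and 0.99, 3.16 and 2.61 on the control arrays, with insect 3 and control 1 again lowest. Both of its other probes repeated these low fish: A_05_P439417 read 0.68 on insect 3 and 0.36 on control 1 and 1.93 to 2.89 on the other 5 arrays, and A_05_P292712 read -2.48 on insect 3 and -2.18 on control 1 and -1.83 to -0.47 elsewhere. NM_001139709 had 2.21, 1.64, 3.33 and 3.27 on the insect arrays and 3.27, 2.42 and 1.22 on the control arrays. Its other probes were well above background at every spot on 0, 1 and 3 arrays, so they could not be set against it.

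**Figure D3:**
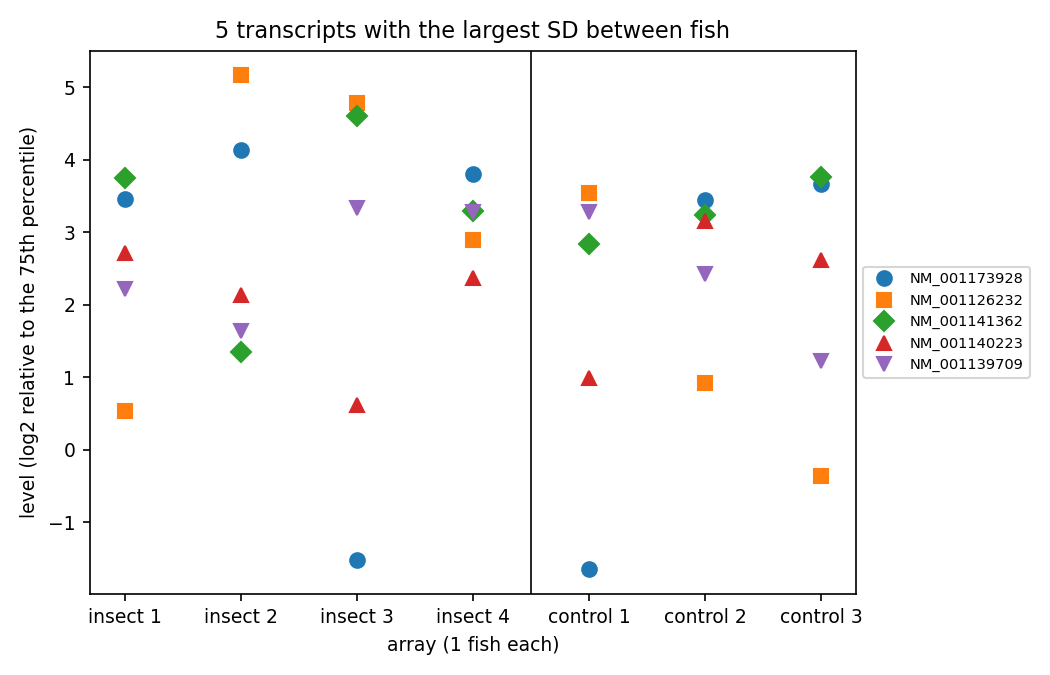
Level (log2 relative to the array's 75th percentile, vertical axis) of the 5 transcripts with the largest SD between fish, by array, with the 4 insect arrays left of the line and the 3 control arrays right of it. NM_001173928 drops to -1.53 on insect 3 and -1.65 on control 1, 1 array of each feed, and NM_001126232 runs from -0.37 to 5.16.

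Fish resembled each other most in 3 pairs, 1 of them across the feeds. Across the 200 transcripts, Spearman's rho between arrays was highest for insect 3 with control 1 at 0.93, insect 1 with insect 4 at 0.93 and control 2 with control 3 at 0.91, and lowest for insect 3 with control 3 at 0.79. These values are across transcripts of the same arrays, which are not independent replicates. Insect 3 and control 1 were together the 2 lowest or the 2 highest fish for 47 of the 200 transcripts (23.5%) and for 27.2% of the other 1684, and for 7 of the 20 transcripts of largest SD. Control 2 and control 3 held such places together for 59 (29.5%) and for 22.4% of the others, and they share a slide as well as a feed. The remaining 19 pairs did so for 7 to 33 of the 200.

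The feed was tested to ask whether the levels of the transcripts with the brightest probes differed between the insect fish and the control fish. The transcripts were chosen by the mean over all 7 fish and not by the difference, but one that is high on 1 feed can enter through that feed alone. The insect mean lay below the limit of 1.87 at rank 200 for 7 of the 200 and the control mean for 17, so the counts over the 200 are given as a description. No transcript of the 200 passed the threshold, an adjusted p under 0.05 over all 23094 probes tested with limma, where 1 probe (0.00433%) did. The lowest adjusted p among the 200 was 0.582. At an unadjusted p under 0.05, 16 of the 200 (8.0%) were found with limma against 1811 (7.84%) of all probes tested. Of these, 8 were higher with insect feed, or 4.0% against 4.70% of all probes, and 8 were lower, or 4.0% against 3.14%. Of the 8 higher ones, 3 had a control mean below the limit at rank 200.

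Differences were small as a whole. Their median over the 200 was 0.00 log2 units, with 99 higher and 101 lower, beside 0.03 over all probes tested. The median size without regard to sign was 0.242 log2 units, beside 0.283 over all probes tested and 0.249 over the other 1684 transcripts. A difference of 2-fold or more was found for 4 of the 200 (2.0%), each higher with insect feed, and for 4.46% of all probes. These 4 were NM_001123640, NM_001126232, NM_001141230 and NM_001136553. In the first 3 the insect means of 3.23, 3.34 and 3.26 lay above the limit and the control means of 1.15, 1.36 and 1.72 below it. By group means these 3 thus entered the 200 through the insect arrays. Single fish did not all follow. In NM_001126232 insect 1 lay below the limit at 0.53 and control 1 above it at 3.54, and in NM_001141230 control 1 lay above it at 2.02. The 95% interval of a difference reached a median of 0.617 log2 units to either side, beside 0.733 over all probes tested. For 123 of the 200 the whole interval lay within 2-fold in either direction. The share of all probes with such an interval was not taken, so the count is not read as particular to the 200. Every insect fish lay above every control fish for 11 of the 200 (5.5%), beside 4.72% of all probes tested, and below for 12 (6.0%), beside 4.28%.

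The count of 16 moved with single arrays and with the signal used. It was 30 without control 1, 7 without control 2 and 9 without control 3, and 11.4%, 5.10% and 7.44% of all probes had such a p in the same fits. On slide 1 alone control 1 faces the 4 insect fish by itself, so only the median difference of the 200 is given. It was -0.053 log2 units, beside 0.119 over all probes. Adding slide to the fit as a fixed block also compares the insect fish with control 1 only. The count was then 12 (6%), beside 8.17% of all probes. With median spot signals and normexp in place of the processed signal, which changes the spot summary and the background correction together, it was 42, of which 11 were higher (26.2%, against 50.0% of the 16), while 7.83% of all probes had such a p and the median difference of all probes shifted to 0.26 log2 units. In each of these fits 0 of the 200 passed the adjusted threshold.

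**Figure D4:**
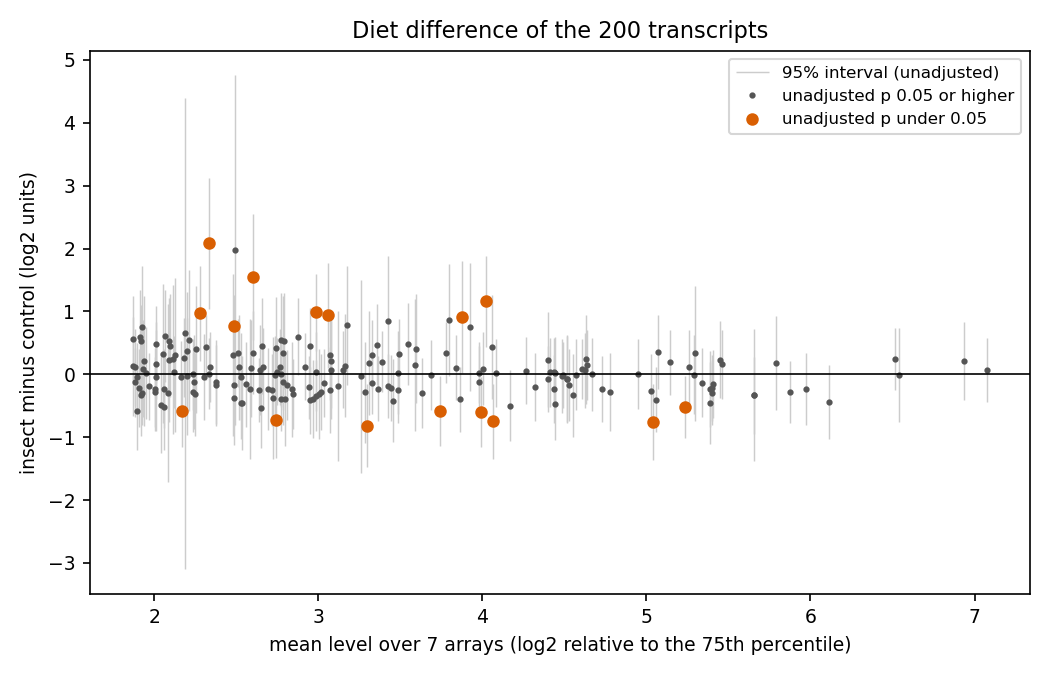
Difference between feeds, insect minus control (log2 units, vertical axis), against mean level (horizontal axis) for the 200 transcripts, with unadjusted 95% intervals as grey lines and the 16 transcripts with an unadjusted p under 0.05 in colour. Points lie on both sides of 0 over the whole range of levels, and the widest intervals belong to NM_001173928 and NM_001126232.

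Among the 16, the 8 higher with insect feed differed by 0.77 to 2.08 log2 units and the 8 lower by -0.52 to -0.82. The smallest p belonged to NM_001123640, with 4.11, 2.98, 2.22 and 3.59 on the insect arrays and 1.58, 1.22 and 0.63 on the control arrays. The groups did not overlap, and the difference was 2.08 ± 0.46 log2 units (SE), or 4.23-fold, with a limma adjusted p of 0.582. It was among the 200 brightest on the 4 insect arrays only, at ranks 56 to 169, and at ranks 232 to 383 on the control arrays. With slide as a fixed block, or on slide 1 alone, the difference was 1.64 (adjusted p = 0.597 and 0.666 with limma). Both fits set the insect fish against control 1 alone, the only control on slide 1, which is assumed to vary like the others, so they give 1 estimate and not 2. With slide as a random block, which uses all 3 controls, the difference was 1.99 (limma adjusted p = 0.839). With median spot signals and normexp it was 2.07, and the limma adjusted p of 0.0632 lay much closer to the threshold. When 1 array was left out, the difference was 1.79 to 2.42 (limma adjusted p = 0.266 to 0.891).

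NM_001123669 was next among the higher ones, with 3.71, 3.33, 3.18 and 3.41 on the insect arrays and 2.84, 2.11 and 2.33 on the control arrays. Its difference was 0.98 ± 0.27 log2 units (SE), or 1.98-fold, with a limma adjusted p of 0.582. Against control 1 alone it was 0.57 (limma adjusted p = 0.678 with slide as a fixed block and 0.687 on slide 1 alone), and with slide as a random block 0.90 (limma adjusted p = 0.839).

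Among the lower ones, NM_001139763 had 3.38, 3.95, 3.90 and 3.76 on the insect arrays and 4.13, 4.68 and 4.67 on the control arrays, a difference of -0.75 ± 0.26 log2 units (SE, limma adjusted p = 0.604). Its second probe, A_05_P444142, had overlapping groups, with 2.04, 2.48, 2.30 and 2.19 on the insect arrays and 2.53, 1.68 and 2.71 on the control arrays. NM_001165269 had 4.56, 4.67, 4.85 and 4.78 on the insect arrays and 4.96, 5.73 and 5.72 on the control arrays, a difference of -0.76 ± 0.27 (SE, limma adjusted p = 0.604). In both, control 2 and control 3 lay well above control 1. Against control 1 alone, with slide as a fixed block or on slide 1, the differences were -0.38 for NM_001139763 (limma adjusted p = 0.774 and 0.771) and -0.25 for NM_001165269 (0.837 and 0.826). With slide as a random block they were -0.67 for NM_001139763 and -0.65 for NM_001165269 (limma adjusted p = 0.839 for each).

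For the 10 brightest, the differences ran from -0.44 to 0.24 log2 units and the lowest limma adjusted p was 0.696. Over the 113 other eligible probes of the same accessions, the sign of the difference matched that of the brightest probe for 69 (61.1%). In the 8 of these pairs whose brightest probe was among the 16, it matched for 7, though a match in sign could be of little size. Where the brightest probe of a matching pair was lower by -0.52 to -0.82 log2 units, the other probe differed by -0.01 to -0.34. Where it was higher by 0.91 to 1.16, the other differed by 0.34 to 0.715. Over the 113, the 2 differences lay a median of 0.313 log2 units apart, more than the median size of the differences themselves.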

How the data were processed

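The deposited files hold 1 scanned array each as spot intensity, extracted per the submitters' processing notes with Agilent Feature Extraction 12.1.1.1, with 50 ng of RNA per sample labelled per the labels' protocols. Per the file headers, values are 1-channel processed signals with spot flags and are not scaled between arrays. The series table deposited beside them equals the background-subtracted intensity at all 62976 spots (largest difference 4.91e-08).

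The log2 processed signal was averaged over a probe's spots. The transcripts were chosen with every spot. Printed levels and tests leave out control spots and outlier-flagged spots (37 of 2177 spot values of the 200), which moved no mean level by more than 0.0403. Probes well above background at over a 0.5 share of their spots on 3 arrays or more entered a limma 3.58.1 fit (lmFit, eBayes, R 4.3.3) of feed alone, with Benjamini-Hochberg adjustment at 0.05, after a test on simulated data. The transcripts and tests were chosen with earlier results of these data known. Named are the 10 of highest mean, the 2 of smallest p in each direction, the 5 of largest and 5 of smallest SD, and 3 on each side of rank 200. Named beyond this rule, after their values were seen, are NM_001123627, NM_001123603, NM_001123699, NM_001141230, NM_001136553 and other probes of named accessions. Planned marker and gene lists could not be used, as 0 accessions matched a gene name. No sequence was given for any probe, and none is printed. The number of arrays limits the precision, and p-values measure the spread between fish, which among the controls includes any difference between slides. They hold no spread between tanks, as the fish of each feed came from 1 tank. Alternatives covered background correction, scaling, filters, outlier spots, the series table, slide, replicate number, array weights and leaving out arrays.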

Additional observations from a re-analysis of the deposited data

Results flagged for a closer look

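Among the 4 insect arrays, 3 of 32 measures had 1 array set apart from the others by more than Dixon's critical ratio. Chance gives about 1 in 20 for measures not chosen by their spread. Most of these measures are named transcripts, some of them named for their SD, so that rate does not apply and the 3 are a description. The 3 control arrays are too few for this rule. Insect 3 read -1.53 for NM_001173928, against 3.46 to 4.14 on the other insect arrays. Insect 1 read 5.98 for NM_001140843, against 5.90 to 5.91, a gap of little size in a very narrow group. Insect 2 held 179 of the 200 transcripts in its own top 200, against 183 on each of the other insect arrays, a tie that sets the ratio to 1, its largest value. Over all 200 transcripts 13 (6.5%) were set apart in this way, 4 by insect 1, 2 by insect 2, 4 by insect 3 and 3 by insect 4.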

How the results depend on the processing

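No transcript of the 200 passed the adjusted threshold under any of the 22 other settings, and the 4 named diet differences kept their sign in all 22. These 4 were named for their small p, and their groups did not overlap, so leaving out arrays could not change the sign. A change of filter leaves the difference as it is. The kept signs are therefore a description and no test. With all members kept as chosen, the count at an unadjusted p under 0.05, 16 in the main setting, was 42 with normexp, 10 on slide 1 alone, 7 to 30 when 1 array was left out and 25 without both control 1 and insect 3, a setting chosen after seeing the data. The median diet difference was -0.094 with normexp and -0.001 in the main setting. The median SD between fish, 0.307, was 0.371 with normexp, 0.377 with the series table, 0.238 on slide 1 alone (where only the insect fish contribute), 0.255 to 0.332 when 1 array was left out and 0.260 without both control 1 and insect 3. The causes were not tested. With the replicate block the count was 6 (3%), all of them higher, beside 3.40% of all probes. The correlations between deviations of arrays with the same number were -0.27, 0.16 and -0.32, so the numbers were not taken to pair the fish. Scaling by another percentile subtracts a constant per array and so cannot change the choice of the 200, and normexp and the series table chose 196 and 195 of them again.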

Other observations

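Probes with other identifiers were as bright as the 200 transcripts. At or above the mean level of the last of them, 1179 probes of any identifier were well above background at every spot on all 7 arrays, 234 with an NM_ accession and 945 without. The 200 therefore describe only the part of the bright signal that carries such an accession.

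The highest fish of the 7 was control 3 for 55 of the 200 transcripts and insect 4 for 11, with 23 to 35 for each of the other arrays. The lowest was control 2 for 44, with 19 to 34 for each of the others. Such counts were not made for the other transcripts, so whether they are particular to the 200 was not tested.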
